A study of Mus musculus with 15 samples.

Results

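RNA and N6-methyladenosine (m6A) were compared between MPC5 podocytes that had received an shRNA virus against METTL3 and then added glucose, and MPC5 podocytes in standard medium. The members are the 11591 genes, of 25012 listed, with a mean of at least 1 FPKM (fragments per kilobase of transcript, scaled to sequencing depth) over the 3 deposited libraries, and the 16602 m6A peaks that paired 1 to 1 on the same strand, with at least 1 shared base, between the 22498 control and 27480 glucose peaks. The pairing took, for each peak, the longest overlap in the other list.

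MPC5 is a single clone of immortalised mouse podocytes, the epithelial cells whose foot processes form the filter of the kidney glomerulus. The control group is labelled wild type and was grown in standard medium with no virus. The other group is labelled METTL3 knockdown, received the sh-METTL3 virus, and was then kept for 72 hours with glucose labelled as 25 µmol/L. Another condition received the virus alone, and its values are given beside the others for reference. No group received a control shRNA or glucose without virus, so the part of the virus, the hairpin and the glucose in any difference cannot be told apart. Of the series' 15 samples, 10 belong to this comparison, 5 in each condition, and every sample carries the same batch label. In each condition 2 samples are input RNA, 2 are the fraction bound by an m6A antibody, and 1 is named by its condition alone.

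m6A is placed on messenger RNA by a complex around METTL3 and METTL14, mostly near stop codons and in 3'UTRs, and is read by proteins that alter splicing, translation and decay of the transcript. A related methyl mark on the first transcribed adenosine, next to the cap, is written by another enzyme and is also bound by m6A antibodies. In podocytes, loss of slit diaphragm and actin-anchoring proteins accompanies diabetic kidney disease, and the title of the study names mesenchymal stem cells, ferroptosis and an axis of SMAD2, SMAD3, METTL3 and S1PR1.

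The RNA values are 1 column of counts and 1 of FPKM per condition, so no difference in RNA has a replicate check, and no test was made. The control held 54282720 counts, with 52807701 in the library labelled sh-METTL3 with glucose (from here on the glucose library) and 53655982 in that labelled sh-METTL3 alone (from here on the virus library). Ratios of count shares, glucose over control, carry exact binomial 95% intervals that cover counting error only, and PCR copies cannot be told from separate molecules. A log2 ratio was taken of FPKM + 1, which understates the change of low genes, and a gene is called higher or lower here at 2-fold on that scale. The filter on mean FPKM admits genes under 1 FPKM in the control through the virus-treated libraries. Filip1l, Klf2, Sphk2, Ythdc2, Egln3 and Bmf are among those that entered this way. Log2 ratios of named genes and list medians are given relative to the median tested gene, which lay 0.16 above 0.

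The targeted gene was not lower. Mettl3, which encodes the methyltransferase itself, stood at 2.34 FPKM in the control, 2.42 in the virus library and 2.49 in the glucose library. With 989 control and 1033 glucose counts, the ratio of count shares was 1.07 (0.983 to 1.17). Mettl3 RNA thus went against the label of both virus-treated libraries, and protein was not measured. Smad3, the transducer of TGF-beta signals, was at 5.14, 24.2 and 19.3 FPKM in the same order of libraries, a count-share ratio of 3.78 (3.61 to 3.96). Smad2, its partner, was at 3.60, 5.77 and 4.66 FPKM, with a ratio of 1.31 (1.24 to 1.37). S1pr1, a receptor for sphingosine 1-phosphate, was at 1.78, 0.335 and 1.02 FPKM, and its 451 control and 254 glucose counts gave a ratio of 0.579 (0.494 to 0.677). Of these 4 genes, only Smad3 passed 2-fold, and S1pr1 alone had less RNA in the glucose library than in the control.

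Over all tested genes, 956 (8.25%) were at least 2-fold higher in the glucose library and 426 (3.68%) at least 2-fold lower. Counts of list members below are to be read against these shares. The split depends on the reference level: relative to the median gene it was 617 higher and 661 lower, and with median-of-ratios scaling 558 higher and 733 lower. In the virus library, against the same control, 11.4% of the genes were at least 2-fold higher and 8.01% lower. Protein-coding genes held 894 of the higher and 171 of the lower genes, out of 9770 tested. The other 1821 genes held 62 higher and 255 lower, among them 57 of 77 snoRNAs and 8 of 10 snRNAs lower. Since the protocol names poly(A) RNA, the share of these small RNAs may vary with library preparation, which was not tested. The ratio moved with transcript length, taken from counts and FPKM: with the genes in 3 length groups of equal size, the short group had a median of -0.36 and the long group 0.23 (Spearman rho 0.40 across the 11591 genes, which are not independent). The part of length in the results below was not tested, and the medians of several lists are also given relative to the median gene of the same length decile.

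**Figure D1:**
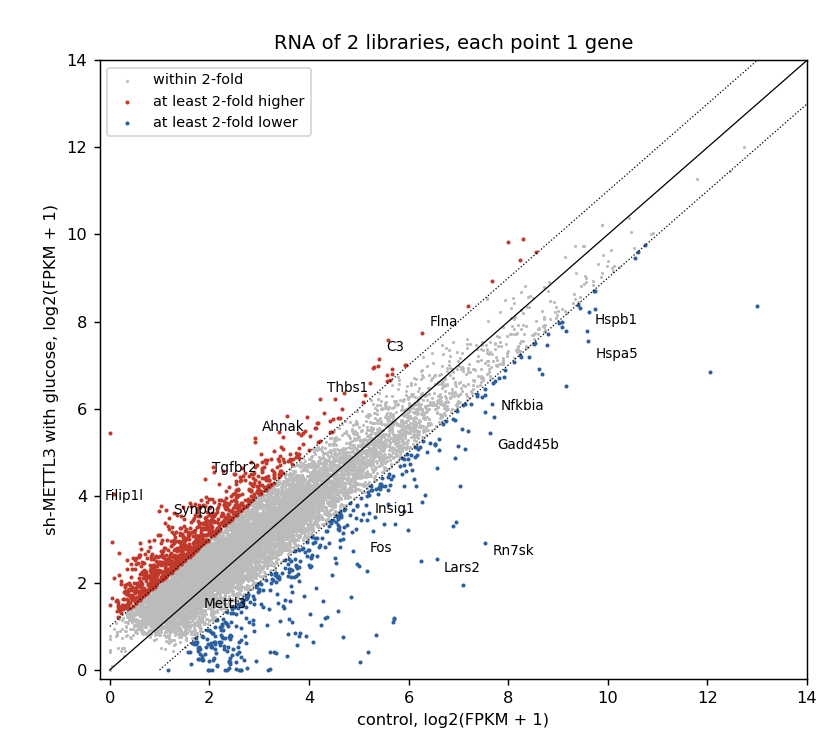
RNA level of the 11591 tested genes in the control (x axis) and in the library labelled sh-METTL3 with glucose (y axis), both as log2(FPKM + 1). Each point is 1 gene, the solid line marks equal values and the dotted lines 2-fold. The 956 higher genes (red) are mostly of low to middle level in the control, and the 426 lower genes (blue) include abundant chaperones such as Hspa5 and structured RNAs such as Rn7sk.

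The protein-coding genes with the largest positive ratios also had mixed roles. Filip1l, whose protein resembles a filamin-binding protein, was at 0.980 FPKM in the control, 14.6 in the virus library and 11.6 in the glucose library, a count-share ratio of 11.9 (10.8 to 13.2). Cdc42ep1, an effector of the small GTPase Cdc42, was at 3.22, 29.6 and 24.4 FPKM. Synpo, the actin-binding protein of podocyte foot processes, was at 1.19, 8.59 and 11.7 FPKM, with 941 control and 9096 glucose counts and a ratio of 9.94 (9.29 to 10.6). Each of these 3 was far above the control in both virus-treated libraries. Tgfbr2, the type II receptor that binds TGF-beta, was at 2.75, 21.1 and 19.9 FPKM, a ratio of 7.28 (6.94 to 7.65). Ehd2, a membrane-remodelling ATPase of caveolae, was at 3.25, 23.9 and 22.2 FPKM, and Ahnak, a very large scaffold protein, at 6.54, 32.3 and 39.0 FPKM. Slc6a6, the taurine transporter, was at 6.54, 56.7 and 36.4 FPKM. Notch2, a receptor of the Notch pathway, was at 3.85, 30.6 and 22.8 FPKM, and Bcar1, the p130Cas adaptor of focal adhesions, at 10.8, 62.9 and 55.7 FPKM. Irgm2, an interferon-inducible GTPase, was at 1.76, 6.87 and 12.3 FPKM, and it overlaps Igtp on the same strand, so its reads may be shared with that gene. Predicted genes likewise overlap Slc6a6, Notch2 and Srd5a1. Srd5a1, a steroid 5-alpha-reductase, had 494 counts in the control and 3144 in the glucose library. For these genes the glucose library held 5.19 to 11.9 times the control's share of counts.

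The 12 lowest protein-coding genes had mixed roles. Lars2, the mitochondrial leucyl-tRNA synthetase, was at 93.4 FPKM in the control, 4.54 in the virus library and 4.83 in the glucose library. Among structured and ribosomal RNAs, the transcript listed as CT010467, with no annotated role used here, had 1243610 counts in the control and 48916 in the glucose library, and mt-Rnr1, a mitochondrial ribosomal RNA, had 45178 and 7041. The count-share ratio, glucose over control, was 0.0522 for Lars2 and 0.0404 for CT010467. How far the level of such RNA moves the other values, that of Lars2 included, was not tested. Gadd45b, a stress-inducible growth regulator, was at 197.3, 28.5 and 42.3 FPKM, a count-share ratio of 0.216 (0.210 to 0.223). Fos, the immediate early subunit of AP-1, was at 37.8 FPKM in the control, 86.7 in the virus library and 8.19 in the glucose library. Fos is thus the gene of this set whose 2 virus-treated libraries lay on opposite sides of the control. Nfkbia, the inhibitor that NF-kB itself induces, was at 207.7, 22.1 and 55.0 FPKM, with a ratio of 0.267 (0.260 to 0.274). Vamp2, a vesicle SNARE protein, was at 21.9, 6.56 and 4.89 FPKM. The clock genes Per1 and Ciart were also low, Per1 at 46.9, 13.7 and 13.1 FPKM and Ciart at 23.7, 1.38 and 6.08 FPKM. Mrpl53, a mitochondrial ribosomal protein, was at 28.7, 8.44 and 5.68 FPKM, and Rsrp1, an arginine- and serine-rich protein, at 70.2, 28.1 and 17.5 FPKM. Hspa5, Dnajb1 and Hspb1 complete the 12 lowest and are described with the chaperones.

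**Figure D2:**
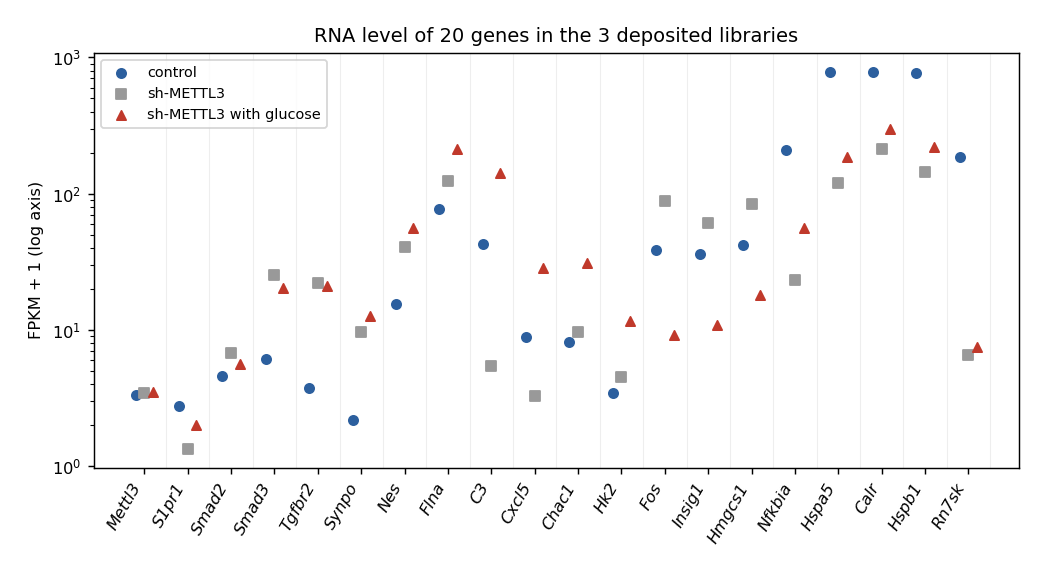
RNA level of 20 genes in the control (blue circles), the virus library labelled sh-METTL3 (grey squares) and the library labelled sh-METTL3 with glucose (red triangles), as FPKM + 1 on a log axis, 1 library per condition. Mettl3 has nearly the same level in the 3 libraries, Synpo and Tgfbr2 are high in both virus-treated libraries, and C3, Cxcl5, Fos, Insig1 and Hmgcs1 have the sh-METTL3 library on the other side of the control from the glucose library.

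Many chaperones of the endoplasmic reticulum and the cytosol had lower RNA in the glucose library. In the list on the unfolded protein response and ATF4, 7 of 28 tested genes were at least 2-fold lower and 3 higher, and 22 lay below the median gene. Its median was -0.74, or -0.58 relative to genes of like length, and -0.88 in the virus library. The lower genes were led by resident chaperones of the endoplasmic reticulum. Hspa5, the master chaperone also called BiP, was at 779.8 FPKM in the control, 119.5 in the virus library and 185.7 in the glucose library, a count-share ratio of 0.240 (0.238 to 0.242). Calr, a calcium-binding lectin chaperone, was at 786.4, 212.0 and 296.8 FPKM, and Manf, a secreted stress protein, at 60.4, 19.6 and 22.6 FPKM. Hsp90b1, the chaperone GRP94, was at 239.9, 140.9 and 105.1 FPKM. The 3 higher genes are targets of ATF4 and not chaperones. Chac1, which degrades glutathione, was at 7.19, 8.60 and 30.2 FPKM, a ratio of 4.23 (3.94 to 4.54). Sesn2, a stress-inducible regulator of mTORC1, was at 2.37, 5.53 and 11.3 FPKM, and Atf3, a transcription factor, at 6.72, 16.8 and 25.2 FPKM. Atf4 itself was at 149.1, 91.9 and 114.6 FPKM. The chaperones and these 3 targets were named for the direction of their ratios, so no split within the list can be read from their signs.

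Some promoters of these chaperones carry the endoplasmic reticulum stress element, CCAAT and CCACG with any 9 bases between them, which is bound by NF-Y together with ATF6. In the RefSeq promoter table of mouse build GRCm38.p6, which spans 250 bases before to 50 after each gene's start, 39 of 32851 promoters (0.119%) hold it on either strand. Of 28 list genes, 25 matched the table and 7 hold it. The windows below are those of the list members that hold the element. They run 5′ to 3′ on the gene's strand, the capitals mark the element, and in Calr and Creld2 it lies on the opposite strand.
Hspa5: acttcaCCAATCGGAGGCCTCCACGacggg
Calr: acaacgCGTGGTCGACCCTCATTGGcccat
Hsp90b1: acaagcCCAATCGCAAGGAGCCACGcttcg
Pdia6: cagagaCCAATGAAAGGCGGCCACGgcgtg
Creld2: gcttctCGTGGCGAGCCTCAATTGGtccac
Dnajc3: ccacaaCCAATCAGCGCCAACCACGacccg
Canx: tattgaCCAATCACCACGCTCCACGaagaa
The Hspa5 window is chr2:34772019-34772048, on the plus strand, and its element ends 46 bases before the RefSeq start of the gene. The annotation used for the RNA values begins Hspa5 at chr2:34771970, so the window lies inside the gene by that annotation. The Calr window is chr8:84847070-84847099 and the Hsp90b1 window chr10:86705633-86705662, both on the minus strand. These 7 genes had log2 ratios of -2.22 for Hspa5, -1.56 for Calr, -1.34 for Hsp90b1, -1.02 for the disulfide isomerase Pdia6, -0.78 for Creld2, -0.48 for the co-chaperone Dnajc3 and -0.37 for the lectin chaperone Canx. All 7 lay below the median gene, with a median of -1.02, and the 18 matched list genes without the element had a median of -0.50. Over all tested genes that hold it, 12 in number and these 7 among them, the median was -0.83. Of the 12, 3 were at least 2-fold lower, and all 3 are among the 7 list genes. A match describes these letters and shows no binding.

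In the cytosolic heat shock list, targets of HSF1, 8 of 16 tested genes were at least 2-fold lower and 1 was higher. The median was -1.12, also -1.14 relative to genes of like length, and -1.25 in the virus library. Hspa1b and Hspa1a encode nearly identical copies of inducible HSP70, so reads may have been split between them. Hspa1b was at 74.5 FPKM in the control, 2.32 in the virus library and 4.70 in the glucose library, and Hspa1a at 23.1, 0.748 and 1.56 FPKM. Dnajb1, an HSP40 co-chaperone, was at 94.4, 23.2 and 24.0 FPKM. Hspb1, the small heat shock protein HSP27, was at 768.2, 142.4 and 219.3 FPKM, a count-share ratio of 0.288 (0.283 to 0.292). Constitutive HSP70, Hspa8, was at 840.9, 331.3 and 417.8 FPKM, and HSP90 alpha, Hsp90aa1, at 389.6, 177.1 and 120.0 FPKM. Hspb8 was the member above the median gene, at 2.81, 7.24 and 6.85 FPKM. Of the 16 genes, 15 lay below the median gene. The heat shock element, GAA, any 2 bases, TTC, any 2 bases and GAA on either strand, is held by 198 of the 32851 promoters (0.603%) and by 3 of the 11 matched list genes, namely Hspd1, Hspe1 and Hsph1. Hspd1 and Hspe1 encode the mitochondrial chaperonin pair and are transcribed away from each other from a shared promoter.
Hspd1: cgcggggccTTCCGGAAGGTTCtagaacgg
Hspe1: cacggtccgTTCTAGAACCTTCcggaaggc
Capitals mark the element. These windows overlap on opposite strands, at chr1:55088056-55088085 for Hspd1 and chr1:55088050-55088079 for Hspe1. Hspd1 was at 171.0 FPKM in the control against 92.6 in the glucose library, and Hspe1 at 97.2 and 38.3. The median was -1.48 over the 3 list genes with the element and -1.52 over the 8 matched ones without it, and -0.15 over all 46 tested genes that hold it.

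All 32 tested cytosolic ribosomal proteins were below the median gene, 4 of them at least 2-fold lower and 0 higher. Relative to the median gene the lower ones numbered 16, and with median-of-ratios scaling 22. Their median was -1.003, -0.79 relative to genes of like length, and -1.30 in the virus library. Rplp1, a stalk protein of the large subunit, was at 1504 FPKM in the control, 526.9 in the virus library and 705.9 in the glucose library. Many processed copies of ribosomal protein genes exist, so reads could have been split between them. Nuclear-encoded oxidative phosphorylation genes showed a like pattern on a smaller scale, with 27 of 27 below the median gene, 0 past 2-fold (1 relative to the median gene), and a median of -0.50 that became -0.32 relative to genes of like length. Of the structured noncoding RNAs, 7 of 7 tested were at least 2-fold lower. The protocol names poly(A) RNA, and how library preparation bears on the level of such RNAs was not tested. The rows listed as CT010467 held 2.31% of the counts in the control, 0.0857% in the virus library and 0.0946% in the glucose library. Rn7sk, the RNA that holds the elongation factor P-TEFb inactive, was at 185.0, 5.54 and 6.56 FPKM. Of 7 tested nuclear long noncoding RNAs 4 were at least 2-fold lower and 0 higher. They include Snhg12, Snhg1 and Gas5, whose introns hold snoRNAs, and Gas5 was at 133.7, 31.9 and 45.1 FPKM. Their reads may be shared with the snoRNA genes inside them.

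Of the 17 tested genes of the podocyte list, 8 were at least 2-fold higher and 0 lower, and the median was 0.77, or 0.60 relative to genes of like length, and 0.80 in the virus library. With median-of-ratios scaling 5 were higher. Nes, the intermediate filament protein nestin, was at 14.5 FPKM in the control, 39.8 in the virus library and 55.03 in the glucose library, a count-share ratio of 3.81 (3.72 to 3.91). Ezr, which ties podocalyxin to actin, was at 40.6, 100.2 and 126.1 FPKM, and Dag1, the dystroglycan receptor for laminin, at 14.2, 84.1 and 43.8 FPKM. Kirrel, the slit diaphragm protein Neph1, was at 8.61, 45.1 and 22.9 FPKM. Some other members lay below the control. Nphs1, the slit diaphragm protein nephrin, was at 3.35, 1.37 and 1.85 FPKM, a ratio of 0.556 (0.514 to 0.601). Wt1, the Wilms tumour factor that marks mature podocytes, was at 0.654 FPKM in the control against 0.245 in the glucose library, below the level tested. Lmx1b was listed at 0 in the control, so it does not belong to the members below the control. Markers of other cells differed in level: the summed FPKM of the endothelial list was 2.53 in the control and 4.64 in the glucose library and that of the leukocyte list 5.34 and 11.2, whereas the tubular list summed to 69.5 and 108.7. In the tubular list 2 of 5 tested genes were at least 2-fold higher, Lrp2, the endocytic receptor megalin, at 2.05, 14.6 and 7.86 FPKM and Pax8, a kidney lineage factor, at 13.0, 33.2 and 30.1 FPKM. The defining tubular genes Slc5a2 and Hnf4a were listed at 0 in the control. Only 1 gene of the tubular list had 0 counts in both the control and the glucose library. The part of any other cell in the results was not tested. Of 3 tested mesangial and fibroblast genes 1 was at least 2-fold higher and 0 lower, the median was -0.21, and the list's summed FPKM was 31.9 in the control and 28.4 in the glucose library.

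Actin and focal adhesion genes overlap that list in Myh9, Actn4 and Itga3. Of 28 tested, 8 were at least 2-fold higher and 0 lower, and the median was 0.33, or 0.23 relative to genes of like length. With median-of-ratios scaling 4 were higher. Flna, filamin A, was at 76.1 FPKM in the control, 122.1 in the virus library and 210.7 in the glucose library. Ilk, the integrin-linked kinase, was at 9.83, 38.8 and 33.8 FPKM, and Vcl, vinculin, at 16.4, 30.05 and 45.7 FPKM. Actb itself was at 300.0, 604.8 and 680.3 FPKM, a count-share ratio of 2.28 (2.26 to 2.31). The small GTPases and monomer-binding proteins of the same list stayed near the control, with Rhoa at 30.2 and 31.3, Rac1 at 63.9 and 63.4 and Cfl1 at 305.3 and 305.4 FPKM in the control and the glucose library.

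In the TGF-beta and Smad list the highest genes were receptors and Smad3. Of 24 tested genes, 3 were at least 2-fold higher, namely Tgfbr2, Smad3 and Tgfbr3, and 0 were lower, while 21 lay above the median gene. The list median was 0.45, or 0.33 relative to genes of like length, and 0.40 in the virus library. Tgfbr3, the co-receptor betaglycan, was at 4.68, 12.1 and 12.5 FPKM. The shared transducer Smad4 was at 12.4, 23.2 and 21.3 FPKM. The inhibitor Smad7 was at 6.06, 4.44 and 7.08 FPKM, and Id3, a target of BMP signals, was the lowest member at 57.1 FPKM in the control against 38.2 in the glucose library. In the matrix list, 5 of 24 tested genes were at least 2-fold higher and 2 lower, and the median was 0.33. Thbs1, a secreted activator of latent TGF-beta, was at 17.6, 149.5 and 73.6 FPKM. Adamts1, a matrix protease, was at 4.60, 64.3 and 21.6 FPKM, and the protease inhibitor Timp2 at 36.3, 80.4 and 95.4 FPKM. On the lower side were the inhibitor Timp1, at 62.6, 13.1 and 27.9 FPKM, and the fibrillar collagen Col5a2, at 23.8, 13.0 and 10.4 FPKM.

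Sphingosine 1-phosphate is made by kinases, exported by transporters and sensed by receptors. In its list 4 of 13 tested genes were at least 2-fold higher and 0 lower. Sphk2, a kinase that makes the lipid, was at 0.629, 5.31 and 3.44 FPKM, a count-share ratio of 5.49 (4.75 to 6.38). Spns2, the exporter, was at 7.58, 22.0 and 20.1 FPKM, and Degs1, which makes ceramide upstream, at 10.1, 32.1 and 27.5 FPKM. The kinase Sphk1 was at 1.41, 0.963 and 1.27 FPKM and S1pr1 was lower, as given above, so Sphk1 and S1pr1 lay below the control and the 4 called genes above it.

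Ferroptosis is iron-dependent death by lipid peroxidation, restrained by GPX4 with glutathione. Among 25 tested suppressors 3 were at least 2-fold higher and 1 lower, and the median was 0.01. Among 20 tested drivers 4 were higher and 0 lower, and the median was 0.11. Over all tested genes 8.25% were higher and 3.68% lower. Relative to the median gene, and also with median-of-ratios scaling, 0 suppressors and 3 drivers were at least 2-fold higher. Gpx4 was at 156.0 FPKM in the control, 101.02 in the virus library and 118.6 in the glucose library. Slc7a11, the cystine importer, was at 1.82, 1.97 and 2.68 FPKM, and Acsl4, which loads membranes with oxidisable fatty acids, at 7.98, 12.3 and 13.9 FPKM. None of these 3 central genes passed 2-fold. The higher suppressors were the redox genes Txnrd1, at 11.6 and 25.6 FPKM in the control and the glucose library, Gsr, at 13.0 and 28.1, and Nfe2l2, at 6.39 and 14.3. The lower one was Hspb1. The drivers were Chac1, given above, with the metal importers Slc39a14, at 2.21, 4.41 and 8.13 FPKM, and Slc11a2, at 3.15, 6.70 and 10.4 FPKM. In the NRF2 list 5 of 24 tested genes were at least 2-fold higher, among them Srxn1, which repairs peroxiredoxins, at 2.83, 13.5 and 10.05 FPKM, and its median was 0.12. Under either of those scalings 2 NRF2 genes were higher.

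Several lists stood near the control in the glucose library and away from it in the virus library. Interferon-stimulated genes had 1 of 38 tested at least 2-fold higher and 0 lower and their median was -0.08, whereas the virus library had 22 lower and a median of -1.43. Isg15, a ubiquitin-like protein, was at 126.9 FPKM in the control, 28.4 in the virus library and 135.8 in the glucose library. The member past 2-fold was Irgm1, at 5.53, 19.5 and 21.8 FPKM, which was high in both. MHC class I genes kept a deficit, with 12 of 14 below the median gene and a median of -0.71 against -1.86 in the virus library. B2m, the invariant chain, was at 1463, 504.4 and 829.6 FPKM, and Nlrc5, the transactivator of these genes, at 2.37, 2.62 and 6.89 FPKM. Calr and Pdia3 belong to this list and to the unfolded protein list. With median-of-ratios scaling, 3 interferon and 4 MHC class I genes were at least 2-fold lower in the glucose library.

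Inflammatory genes were mixed. Of 24 tested, 4 were at least 2-fold higher and 1, Nfkbia, lower, and the median was 0.22 against -1.27 in the virus library. C3, the central complement protein, was at 41.5 FPKM in the control, 4.47 in the virus library and 140.7 in the glucose library, a glucose over control count-share ratio of 3.42 (3.36 to 3.48). Cxcl5, a neutrophil chemokine, was at 7.89, 2.27 and 27.4 FPKM and Cx3cl1, fractalkine, at 3.68, 4.67 and 14.1 FPKM. Ccl2, a monocyte chemokine, was at 235.7, 27.6 and 134.4 FPKM, and Cxcl10 at 196.0, 34.4 and 114.1 FPKM, both below the control. With median-of-ratios scaling 3 of the list were lower. Complement C3 and these 2 chemokines were above the control and 2 other chemokines of the same list below it.

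Sterol genes took the opposite order. In the cholesterol list 0 of 25 tested genes were at least 2-fold higher and 2 lower, and the median was -0.24, and in the virus library 10 were higher and the median was 0.88. Insig1, the sterol-induced brake on SREBP, was at 35.1, 60.4 and 9.84 FPKM, and Hmgcs1, an early enzyme of the pathway, at 41.2, 82.6 and 17.1 FPKM. Fatty acid genes had 1 of 16 at least 2-fold higher, the carboxylase Acaca at 1.74, 8.20 and 5.03 FPKM, with a median of 0.15 against 0.89. Immediate early genes split within the list, with 6 of 25 at least 2-fold higher and 3 lower and a median of -0.11 against 0.84. Lower were the AP-1 subunits Fos, Fosb at 4.29, 29.5 and 0.698 FPKM and Jun at 72.2, 46.2 and 32.6 FPKM. Higher were Atf3, Fosl2 at 2.67, 11.3 and 8.64 FPKM and Klf2 at 0.964, 1.48 and 5.05 FPKM. The tests that would show whether the glucose library differed from the sh-METTL3 library in these lists need replicates and were not made.

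**Figure D3:**
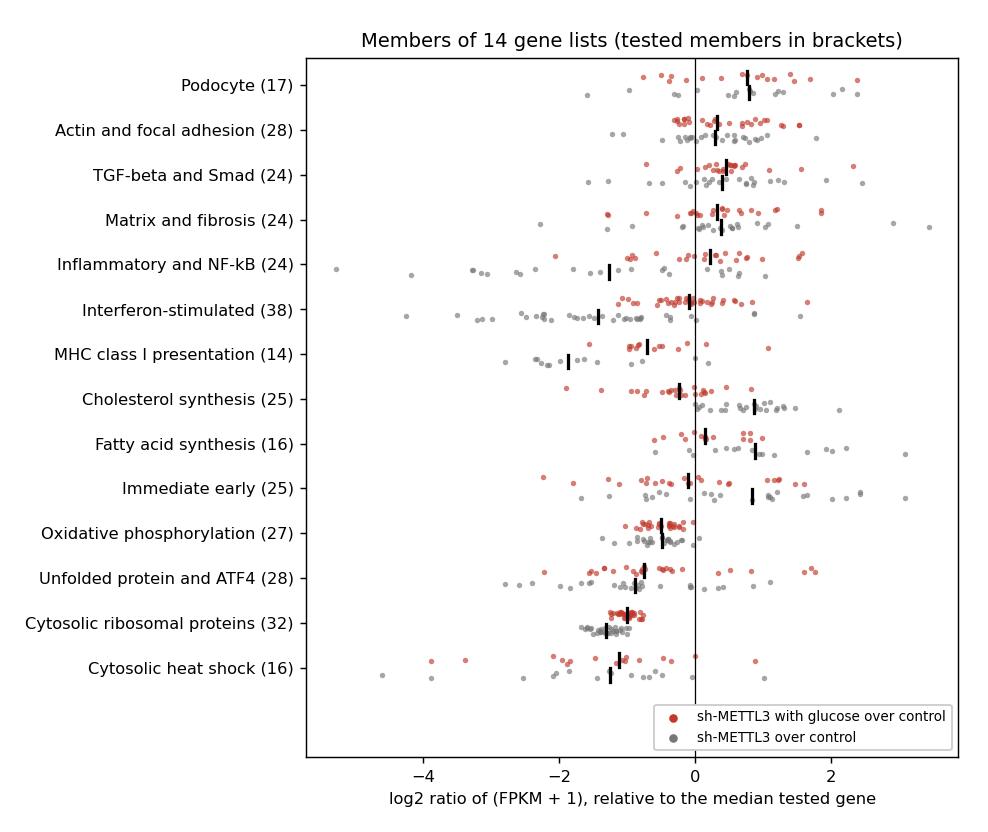
Log2 ratio of FPKM + 1 over control, relative to the median tested gene, for the tested members of 14 gene lists. Red points are the library labelled sh-METTL3 with glucose, grey points the library labelled sh-METTL3, each point 1 gene and each black bar the list median. Heat shock, unfolded protein and ribosomal protein medians lie between -0.74 and -1.30 in both, and interferon medians at -0.08 and -1.43.

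Genes known to respond to glucose stayed within 2-fold of the control in the glucose library. Of 14 tested genes on glucose sensing and the polyol pathway, 0 passed 2-fold in either direction, and the median was 0.05. In the virus library 2 of the 14 were at least 2-fold lower than in the control. Txnip, the classical glucose-induced gene of the MondoA and ChREBP factors, was at 313.5 FPKM in the control, 78.7 in the virus library and 291.1 in the glucose library. Its ratio of count shares, glucose over control, was 0.936 (0.926 to 0.945). In the glycolysis list 1 of 22 was at least 2-fold higher and 1 lower. Hk2, a hexokinase, was at 2.42, 3.49 and 10.7 FPKM, and Gapdh at 77.2, 36.2 and 37.2 FPKM. Proliferation (30 tested), autophagy and lysosome (22 tested) and m6A reader and eraser (14 tested) lists had 0 genes past 2-fold. As count shares, the reader Ythdc2 had a ratio of 3.13 (2.72 to 3.60) on 270 control and 822 glucose counts, and the cyclin Ccne1 0.497 (0.460 to 0.537), so each of their lists then held 1 gene past 2-fold. Of hypoxia genes 1 of 13 was higher, the prolyl hydroxylase Egln3, from 68 to 572 counts, and of apoptosis genes 1 of 18, the BH3-only protein Bmf, from 73 to 1326 counts. Egln3 was at 0.307, 0.363 and 2.64 FPKM and Bmf at 0.165, 6.55 and 3.10 FPKM. At a mean FPKM of at least 5 neither list held a higher gene. In the p53 list 2 of 20 were higher and 1 lower. Among m6A writer subunits, Rbm15, which guides the complex to RNA, was lower at 9.05, 3.45 and 3.06 FPKM, and Mettl14 was at 3.71, 3.71 and 3.04 FPKM. Of the 13 mitochondrially encoded proteins 4 were higher and 1 lower, and nuclear copies of mitochondrial DNA may take part of their reads.

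The m6A data come as 1 peak list per condition, with the authors' fold enrichment of pulled-down over input RNA for each peak. Of the 22498 control peaks 18653 (82.9%) overlapped a glucose peak, and of the 27480 glucose peaks 18775 (68.3%) overlapped a control peak. The 8705 peaks found in the glucose list alone had a median enrichment of 2.85, and the 18775 shared ones 5.88. By place, 21.6% of the glucose-only peaks lay in 5'UTRs and 10.9% in introns, and of the shared glucose peaks 15.5% and 2.46%. Peaks found in the control alone numbered 3845, with a median enrichment of 6.70. Lists called separately differ with depth and input, and the depth of the pulled-down libraries was not analysed here.

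Of the 16602 paired peaks, 1905 (11.5%) had an enrichment at least 2-fold higher in the glucose list, relative to the median pair, and 1686 (10.2%) at least 2-fold lower. The median pair itself differed by -0.04 on the log2 scale among the paired peaks, whereas the median enrichment over the whole lists was 5.99 in the control and 4.81 in the glucose list. The pairs differed by place. Of 2485 pairs in 5'UTRs, 477 (19.2%) were higher and 230 (9.26%) lower, and the median was 0.21. Of 9281 pairs in 3'UTRs, 825 (8.89%) were higher and 911 (9.82%) lower, and the median was -0.04. Coding exons lay between, with 358 of 3160 higher and 291 lower.

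The authors' deposited table of differential peaks, glucose over control, holds 8208 peaks. Of these, 3620 (44.1%) had a positive and 2897 (35.3%) a negative fold change at an adjusted p under 0.05. In the authors' deposited table, 700 of 967 such 5'UTR peaks (72.4%) were higher, with a median log2 fold change of 0.69, against 55.5% over all places. Intronic peaks had the highest share in the authors' deposited table, 83 of 94 (88.3%), with a median of 1.26. Of 3805 3'UTR peaks in the authors' deposited table, 1887 (49.6%) were higher, with a median of -0.16. Within 5'UTRs the share followed the distance to the annotated gene start: in the authors' deposited table it was 80.9% of 497 peaks that begin within 100 bases, 72.5% of 247 at over 100 and up to 1000 bases and 53.4% of 223 beyond 1000 bases. Near the start (within 100 bases), 21 of 27 peaks annotated to coding exons were higher in the authors' deposited table and 15 of 90 annotated to 3'UTRs. Distance was taken from the first base of a peak. Some peaks annotated to 3'UTRs run from the gene start across much of the gene, such as those of Ifit3, Isg15 and Cdc42ep1. Place and distance therefore cannot be told apart in these counts. Among the table's peaks that overlap a peak of both lists, 2577 were higher and 2806 lower, the reverse of the majority over the whole of the authors' deposited table. A peak near the start can hold the cap-adjacent mark as well as internal m6A, and which mark was pulled down was not tested. The same contrast was seen inside single genes. In 1553 genes with paired peaks in both UTRs, the 5'UTR ratio exceeded the 3'UTR ratio in 943 (60.7%), with a median difference of 0.27. That share was 62.1% in the short, 64.9% in the middle and 58.3% in the long group of tested genes.

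**Figure D4:**
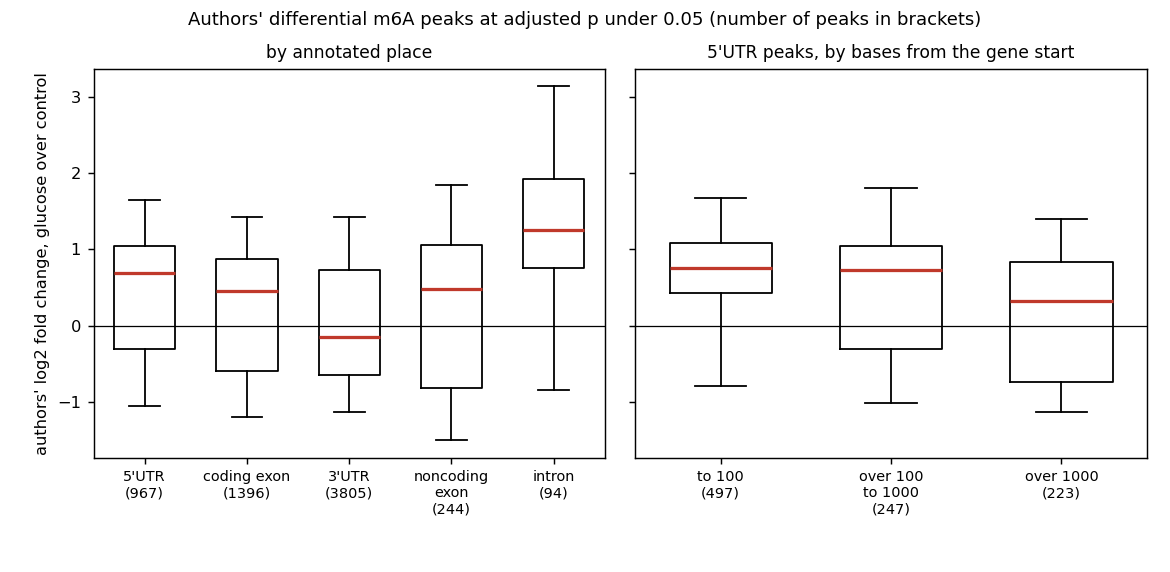
The authors' log2 fold change of differential m6A peaks at adjusted p under 0.05, glucose over control, by annotated place (left) and, for 5'UTR peaks, by distance in bases from the annotated gene start (right). Boxes span the quartiles, red lines are medians and whiskers reach the 5th and 95th percentile of peaks. The 5'UTR median is 0.69 and the 3'UTR median -0.16.

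Peaks of the 4 genes at the centre of the study differed among themselves. S1pr1 had the largest change of the 4: the authors' deposited table gives a log2 fold change of -3.35 (adjusted p 0.0148) for a 3'UTR peak at chr3:115711567-115711866 (mouse GRCm38 coordinates). The deposited fold enrichments of the overlapping peaks were 24.9 in the control, 7.28 in sh-METTL3 and 3.55 in the glucose list. A second S1pr1 peak, annotated to the 5'UTR, had 13.9, 7.80 and 5.45 in the same order. Both S1pr1 peaks were thus lower in the glucose list, on a transcript of only 254 counts there. Smad3 had a pair of 3'UTR peaks with small decreases in the authors' deposited table, at log2 fold changes of -0.26 (adjusted p 0.0339) and -0.56 (adjusted p 3.31e-09). Smad2 had 0 peaks in that table, and its 3'UTR peak had an enrichment of 7.54 in the control and 6.81 in the glucose list. Mettl3 had a 3'UTR peak at chr14:52294871-52295020 with a log2 fold change of 1.76 (adjusted p 0.000117) in the authors' deposited table, an enrichment of 2.71 in the glucose list and no peak in the control list.

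Among peaks present in both lists, the largest positive log2 fold changes in the authors' deposited table were on Ninl (3.39), Bag3 (2.88), Enkd1 (2.87), Usp37 (2.70), Amd1 (2.64), Jph1 (2.58), Tia1 (2.52) and Ankrd11 (2.35). Of these 8 peaks 5 are annotated to 5'UTRs, and the peaks of Ninl, Enkd1, Usp37, Amd1 and Jph1 begin 133, 30, 30, 89 and 120 bases from the gene start. Some are given from first to last base across introns. Amd1 makes the enzyme that commits S-adenosylmethionine to polyamine synthesis, and its peak had an enrichment of 1.91 in the control, 8.32 in sh-METTL3 and 14.3 in the glucose list. Usp37, a deubiquitinase, had 3.99, 7.54 and 46.3. Bag3, an HSP70 co-chaperone, had 2.14, 4.16 and 19.1 for an intronic peak. Tia1, an RNA-binding protein of stress granules, had 14.4, 10.1 and 10.4, which goes against the sign in the authors' deposited table. The Tia1 interval overlaps 2 control peaks, and 14.4 is the value of the one with the longest overlap. The largest negative values in that table, beside S1pr1, were on Flrt3 (-3.79), Ubl4a (-2.75), Onecut2 (-2.61), Ppp1cc (-2.57), Zfp638 (-2.20), Trpm5 (-2.17) and Zscan12 (-2.06), all as the authors' deposited table gives them. Ppp1cc, a catalytic subunit of protein phosphatase 1, had an enrichment of 22.6 in the control and 3.62 in the glucose list on a 3'UTR peak, at 46.6 and 53.2 FPKM of RNA. Jph1, Flrt3, Onecut2 and Trpm5 had under 1 FPKM in both libraries, so their peaks rest on little input RNA.

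Over all 6517 peaks at an adjusted p under 0.05 in the authors' deposited table, 55.5% were higher, and the list counts are to be read against that share. By list, the counts went 18 of 18 higher for cytosolic ribosomal proteins, 13 of 14 for heat shock genes, 15 of 16 for MHC class I genes and 24 of 29 for actin and focal adhesion genes. Immediate early genes went the other way, with 22 of 30 lower by the authors' deposited table, and so did m6A writers, with 9 of 11 lower. The list medians of RNA lay below the median gene for heat shock and ribosomal protein genes and above it for actin genes. These tallies do not match each peak to the RNA of its own gene. Cholesterol genes had 16 of 21 higher in the authors' deposited table, with Insig1 at a log2 fold change of 1.57 (adjusted p 3.98e-88) on its 3'UTR and Hmgcs1 at 1.69 on its 3'UTR and -0.93 on its 5'UTR. For TGF-beta and Smad genes the split was 6 higher and 11 lower. According to the authors' deposited table, Smad7 had -1.46 on its 5'UTR and -0.996 on its 3'UTR, Id3 -0.92 on its 3'UTR and Skil, a repressor of Smads, 2.41 on its 3'UTR. Podocyte genes had 13 higher and 4 lower, and the exonic Synpo peak was at -1 in the authors' deposited table, with an enrichment of 3.15 in the control, 23.9 in sh-METTL3 and no peak in the glucose list. Ferroptosis drivers had 9 higher and 5 lower. The authors' deposited table puts the transferrin receptor Tfrc at 2.13, the ferritin receptor Ncoa4 at 2.90 and Slc39a14 at 3.14, each with a glucose peak and no control peak, and Chac1 at -1.18 with an enrichment of 11.2 in the control and 5.47 in the glucose list. Suppressors had 11 higher and 6 lower, with Gss, glutathione synthetase, at 1.16 and Acsl3 at -1.20 in the authors' deposited table. Interferon genes were split 12 to 16: in the authors' deposited table the 3'UTR peaks of Ifit3 and Isg15 were at -0.90 and -0.87. Inflammatory genes were split 6 to 6, with Nfkbiz at -1.34 and a 5'UTR peak of Cxcl10 at 1.29 in the authors' deposited table.

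RNA and m6A were then set side by side in the same genes. Of the 956 genes with at least 2-fold higher RNA, 361 (37.8%) had only lower peaks in the authors' deposited table and 103 (10.8%) only higher peaks. Of the 426 with lower RNA, 25 (5.87%) had only lower and 70 (16.4%) only higher peaks. Of the 10209 genes within 2-fold, 14.9% had only lower and 20.5% only higher peaks. These shares include genes with no peak at all, which were 81 of the 956, 234 of the 426 and 1961 of the 10209. The 3 groups therefore differ in how many genes could show a differential peak, and their shares are not directly comparable. Seen from the peaks, the 1910 genes with only lower peaks in the authors' deposited table had a median RNA log2 ratio of 0.36, the 2264 with only higher peaks -0.10, and the 4788 with peaks but none in that table at this threshold 0.08. The order was the same in each length group, at 0.17 and -0.44 in the short, 0.34 and -0.14 in the middle and 0.44 and 0.07 in the long group for lower and higher peaks. It was also the same for 5'UTR peaks alone, with medians of 0.41 for lower and -0.15 for higher, and for 3'UTR peaks alone, with 0.33 and -0.08. The 2276 genes with no peak had a median of -0.41 and a median transcript length of 1375 bases. With the paired enrichment ratios in place of the table, the relation was weak, at a Spearman rho of -0.10 across 7823 genes that are not independent. Peak change is measured against input RNA, so the 2 values share part of their measurement if the RNA columns and the input libraries are the same, which the sources used here do not state.

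**Figure D5:**
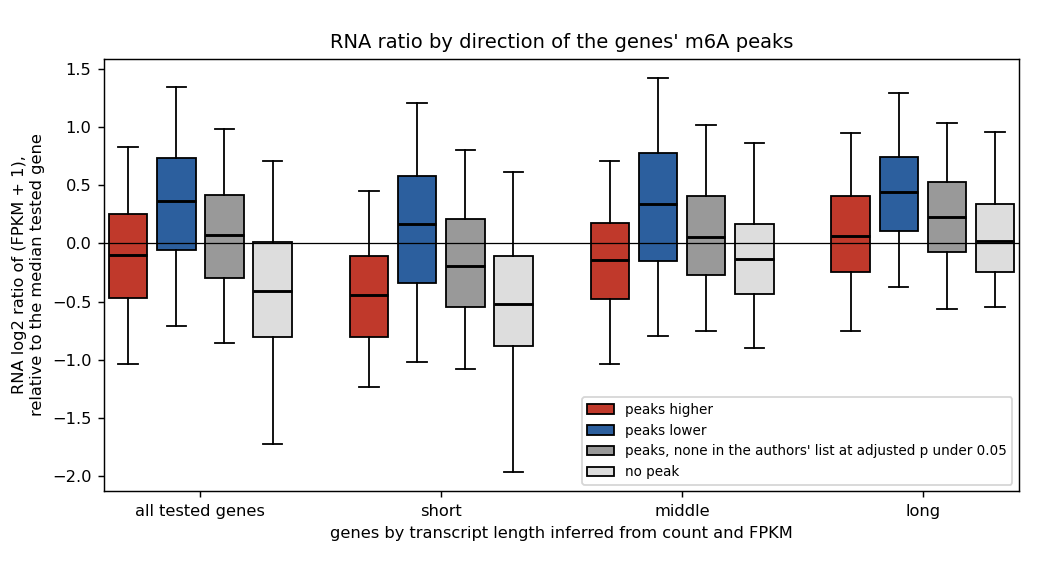
RNA log2 ratio, glucose over control and relative to the median tested gene, for genes grouped by the direction of their peaks in the authors' table, over all tested genes and in the 3 length groups. Boxes span the quartiles, black lines are medians and whiskers reach the 5th and 95th percentile of genes. Genes with lower peaks (blue) have medians of 0.17, 0.34 and 0.44 in the 3 groups, above those with higher peaks (red) at -0.44, -0.14 and 0.07.

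Examples with the largest RNA ratios came from each of the 4 combinations. Filip1l and Cdc42ep1 had higher RNA and lower 3'UTR peaks, with log2 fold changes of -0.62 and -0.46 in the authors' deposited table, and Filip1l enrichments of 18.8 in the control and 11.1 in the glucose list. Bcar1, Frmd6 and Cpt1a had higher RNA and higher peaks. Frmd6, an upstream regulator of Hippo signalling, was at 3.55, 11.4 and 18.2 FPKM with a log2 fold change of 0.49 in the authors' deposited table, although the enrichment of the overlapping peaks was 9.57 in the control and 6.87 in the glucose list. Cpt1a, which admits fatty acids to mitochondria for oxidation, was at 4.70, 8.67 and 21.8 FPKM with 0.36 in the authors' deposited table. Vamp2, Nfkbia and Hspb1 had lower RNA and higher peaks. For Nfkbia the authors' deposited table gives 1.04 on the 5'UTR and 0.86 on the 3'UTR, with no control peak at either, and for Hspb1 0.72 on the 5'UTR and 0.55 on the 3'UTR. Gadd45b had lower RNA and a lower 3'UTR peak, at -0.40 in the authors' deposited table and enrichments of 10.3 and 8.36. Zfp280b, a zinc finger gene, shared that combination, with 1885 control and 55 glucose counts. It was at 4.35 FPKM in the control, 4.44 in the virus library and 0.128 in the glucose library. The authors' deposited table gives -0.74 on its 5'UTR and -0.83 on its 3'UTR. The 5'UTR enrichments, 4.23 in the control and 4.86 in the glucose list, go against that sign. Zc3h11a, the other gene of that combination, is listed in 2 overlapping rows of the same name whose reads cannot be told apart, with 3689 control and 723 glucose counts in their sum.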

How the data were processed

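Per the labels' protocols, poly(A) RNA of MPC5 cells was fragmented, part was pulled down with an m6A antibody, and strand-marked paired libraries were sequenced. Per the submitters' processing notes the tools were HOMER 4.10, edgeR 4.1, StringTie 2.1.2, HISAT2 2.0.4 and fastp 0.19.4, with roles left unsaid, and the build was a human one although the cells are mouse. No source used here names the peak caller. Per the file headers, the authors deposited a table of whole-number counts and FPKM with 1 column of each per condition. The deposited peak lists give a fold enrichment (the ratio of antibody-bound over input RNA) and a log10 adjusted p, used as a score with its sign as deposited. The authors' deposited differential table gives a log2 fold change, a p-value and an adjusted p; it holds peaks with p under 0.05. Its sign was checked against the ratio of deposited enrichments: 88.6% of 6627 peaks had the same sign. Peak starts count from 0, so 1 was added. Unused per-sample columns numbered 0.

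From these, log2 ratios of FPKM + 1 were computed over genes averaging 1 FPKM or more, and exact binomial intervals on count shares (Python 3 with numpy, pandas and scipy). Transcript length was inferred from counts and FPKM. Library identity follows the column names; the sources used here do not say whether these RNA columns are libraries of their own or pooled input. The procedure was tested on simulated data. Members and gene lists were chosen with earlier results of these data known. Named genes are Mettl3, S1pr1, Smad2 and Smad3, the 12 highest and 12 lowest protein-coding genes averaging 5 FPKM or more, in each list up to 3 genes higher and 3 lower, and the 8 highest and 8 lowest differential peaks present in both lists; predicted genes, pseudogenes and near-identical copies were skipped among the extremes. Other members named to complete a pathway were chosen after their values were seen. Promoter windows are from RefSeq, GRCm38.p6. Peak sequences were not analysed here. Some genes that the rule names are not reported here.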

Additional observations from a re-analysis of the deposited data

How the results depend on the processing

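No paired analysis was possible because each condition has 1 RNA column and 1 peak list. Counts of genes at least 2-fold higher (956) and lower (426) became 617 and 661 relative to the median gene, 558 and 733 with median-of-ratios scaling, and 465 and 256 at a mean FPKM of at least 5, where fewer genes are tested. The higher genes numbered 1779 with a pseudocount of 0.1 and 1940 as count shares with 0.5 added, and the lower genes 171 among protein-coding genes. Listed genes at least 2-fold lower (42) became 80 with median-of-ratios scaling and 68 relative to the median gene. Paired peaks higher (1905) and lower (1686) became 1139 and 1013 at a reciprocal overlap of 50%, and 681 and 495, of 7596 pairs, where both enrichments reached 4 with adjusted p under 0.001. The authors' differential peaks at 2-fold numbered 1161 higher and 545 lower. For RNA and peaks in the same genes, paired peaks at 2-fold gave 147 genes with higher RNA and lower peaks (361 before), 23 with lower RNA and higher peaks (70) and 16 with both lower (25). A pseudocount of 0.1 gave 645 with higher RNA and lower peaks, 159 with both higher and 39 with both lower. Relative to the median gene of the same length decile, an alternative chosen after seeing the data, these counts were 213 with higher RNA and lower peaks, 48 with both higher, 114 with lower RNA and higher peaks and 43 with both lower. Except where fewer genes or peaks enter, the cause was not tested. Of the other comparisons of a list count or a named gene's ratio with an alternative, 692 kept their size or side of 2-fold and 79 moved. None of these values past 2-fold changed sign. With 1 library per condition, the spread between cultures is unknown and counting intervals understate the error; low peaks rest on few reads.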

Other observations

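Genes that were nearly absent from 1 of the 2 libraries were mostly small RNAs or overlapping predicted genes. Gm49450 had 0 counts in the control and in the virus library (labelled sh-METTL3) against 3087 in the glucose library, while Tuba1b and Tuba1a, the alpha-tubulin genes it overlaps on the same strand, had 69754 and 45651 counts in the control and 72928 and 59990 in the glucose library. Commd1b had 1186 counts in the control and 2 in the glucose library, and the overlapping Commd1 had 1418 and 1473. Gm10045 had 3 and 607 counts. Reads of overlapping genes cannot be told apart here.

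Fold enrichments in the peak lists take a few values very often. In the control list 874 of 22498 peaks have exactly 6.70, of which 637 miss an adjusted p of 0.05, and in the glucose list 1120 of 27480 have exactly 7.04, of which 751 miss it. Across the 16602 pairs, the log2 ratio of enrichments had a Spearman rho of -0.57 with the control enrichment, which is part of that ratio.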
